A study of Mus musculus with 6 samples.

Results

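The 9 genes described here encode enzymes that remove superoxide or peroxides. They are the superoxide dismutases Sod1, Sod2 and Sod3, catalase (Cat), and the glutathione peroxidases Gpx1, Gpx3, Gpx4, Gpx7 and Gpx8. They were found by gene symbol among the 19730 rows of an RNA-Seq table, and all 9 had 1 row each. Expression is given as FPKM, the number of sequenced fragments per kilobase of transcript, divided by the mapped fragments of the library. Because FPKM is scaled to length, levels can be set side by side between genes.

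RNA came from mesangial cells isolated from mice, which hold the capillary loops of the kidney filter in place and can contract, and which were used at passages 3 to 6. Both groups grew in medium with 25.5 mM glucose and 20% foetal bovine serum, so the controls were high-glucose cultures too. In 3 libraries the cells had received TGF-β1, a growth factor known for its role in fibrosis, at 10 ng/ml for 72 h, and 3 libraries were Control. What the Control cultures received in its place is not stated. The labels do not say whether the 3 libraries of a group came from separate cultures, and the p-values measure the spread between these libraries.

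Superoxide is made by the respiratory chain and by NADPH oxidases, and superoxide dismutases turn it into hydrogen peroxide. Sod1 uses copper and zinc in the cytosol, Sod2 uses manganese in the mitochondrial matrix, and Sod3 is the secreted copper and zinc form that binds to the extracellular matrix. Hydrogen peroxide is then removed by catalase in peroxisomes and by glutathione peroxidases, of which Gpx1 works in the cytosol and mitochondria, Gpx3 is secreted into plasma and along basement membranes, Gpx4 reduces lipid peroxides in membranes, and Gpx7 and Gpx8 sit in the endoplasmic reticulum. In the kidney Gpx3 is best known as a product of the proximal tubule.

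The glutathione peroxidases fall into groups by the codon for the residue that reacts with peroxide. In Gpx1, Gpx3 and Gpx4 it is UGA, normally a stop codon, which the selenoprotein machinery reads as selenocysteine, while Gpx7 and Gpx8 have a cysteine codon there. The sequences show this because the partner genes below include the machinery that only the first group needs. They are coding strands in DNA letters, 45 bases each, from the mm9 annotation (GENCODE M1), with the codon of the reactive residue in capitals.
Gpx1: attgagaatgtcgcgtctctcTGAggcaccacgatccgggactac
Gpx3: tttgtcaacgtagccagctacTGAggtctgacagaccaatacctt
Gpx4: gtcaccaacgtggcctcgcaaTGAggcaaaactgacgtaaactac
Gpx7: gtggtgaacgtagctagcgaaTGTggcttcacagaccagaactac
Gpx8: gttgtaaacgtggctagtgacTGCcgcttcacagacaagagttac

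These windows lie in mm9 at chr9:108241761-108241805 (Gpx1, plus strand), chr11:54720737-54720781 (Gpx3, plus strand), chr10:79517461-79517505 (Gpx4, plus strand), chr4:108076014-108076058 (Gpx7, minus strand) and chr13:113835848-113835892 (Gpx8, minus strand). Each is within 1 coding exon. The capitals are codon 47 of Gpx1, codon 73 of Gpx3, codon 73 of Gpx4, codon 56 of Gpx7 and codon 79 of Gpx8, and the annotation marks the first 3 as selenocysteine. Between any 2 of these windows 21 to 35 of the 45 bases were the same, with the lowest count for Gpx1 and Gpx3 and the highest for Gpx7 and Gpx8. Gpx3 and Gpx7, which differ in the kind of codon, shared 30.

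The libraries were alike in depth. Estimated from the steps of low FPKM values, it was 10.1 to 11 M (mega) fragments per library. Mesangial markers were checked first: Pdgfrb, Vim and Acta2 were present, while 4 of the 9 markers, Itga8, Des, Thy1 and Pdgfra, were under 1 FPKM in every library. Gata3 was 0.756 to 2.42 FPKM in Control and 0.846 to 1.26 FPKM with TGF-β1, and Cspg4 0.0473 to 0.115 and 0.918 to 1.37 FPKM. Vim and Acta2 were higher with TGF-β1 (limma adjusted p 0.00696 and 8.64e-05), and Pdgfrb was lower (0.0396). The summed level of the 9 was 2877 to 3409 FPKM in Control and 7216 to 7550 FPKM with TGF-β1. All 6 endothelial markers were under 1 FPKM in every library. Of 8 proximal tubule markers 4 had a row, and their summed level was 11.1 to 14.7 FPKM in Control and 1.52 to 1.79 FPKM with TGF-β1. Summed macrophage markers were 8.19 to 9.58 FPKM in Control and 2.26 to 3.24 FPKM with TGF-β1, and the difference lay in Csf1r (5.52 to 7.37 and 0.234 to 0.525 FPKM). Cd68 was 2.02 to 3.67 and 1.78 to 2.68 FPKM (limma adjusted p 0.393), Itgam was at most 0.359 FPKM in any library, and the leukocyte marker Ptprc was at 0 in all Control libraries and at most 0.0448 FPKM with TGF-β1. Summed podocyte markers were 19.7 to 24.9 FPKM in Control and 12.6 to 13.7 FPKM with TGF-β1, and summed epithelial markers 0.322 to 0.889 and 2.69 to 2.81 FPKM. The part of these markers in the results below was not tested. Fewer cells of a type and less RNA per cell cannot be told apart in such data.

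Gpx3 and Sod3, the 2 secreted enzymes, were called lower after TGF-β1, in data where lower calls were common. Gpx3 fell 2.45-fold and Sod3 fell 5.41-fold in mean FPKM, and the groups of neither overlapped. The other 7 genes did not pass the test, which asked for a Benjamini-Hochberg adjusted p under 0.05 from limma over all rows. Of the 9 genes, 7 had the mean of at least 1 FPKM needed to enter the main test. Sod3 and Gpx7 did not, and their values are from the same test without that filter. In the main test 48.1% of all rows were called and 23.6% were called lower, and without the filter 16.0% were called lower. A count of 2 lower calls among 9 genes thus does not set them apart from other rows. Of the 7 genes in the main test 1 was called. Of all 9 genes 0 were called higher, in data where 2911 of the 11898 rows in the main test were.

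**Figure D1:**
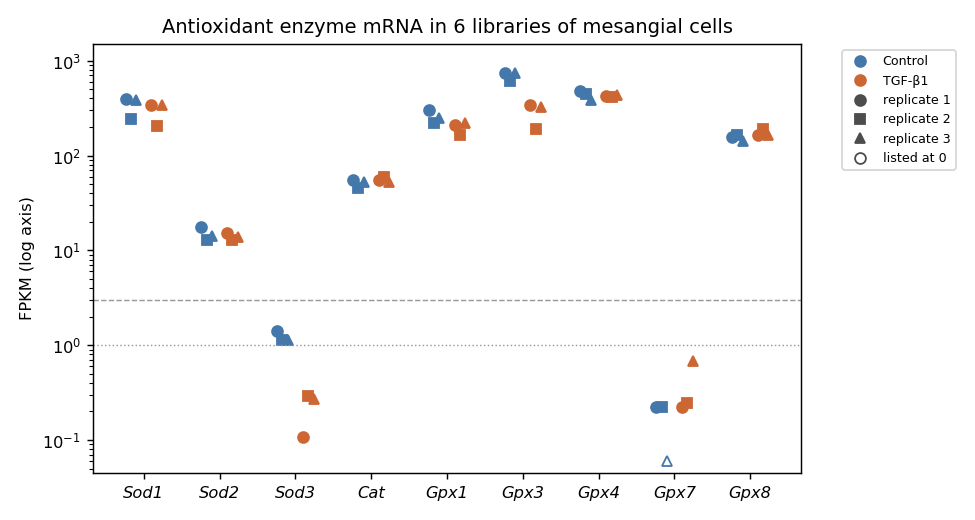
FPKM of the 9 genes (log axis) in the 3 Control and 3 TGF-β1 libraries, 1 symbol per library, with the shape giving the replicate number, an open symbol for a value listed at 0, a dotted line at 1 FPKM and a dashed line at 3 FPKM. Gpx3 and Sod3 are lower in every TGF-β1 library than in any Control library, and 7 genes are above 3 FPKM throughout.

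Gpx3 was the most abundant of the 9 genes in Control cells. It lies on chromosome 11 (54715955 to 54723879, plus strand). In Control the libraries gave 744, 618 and 736 FPKM and the TGF-β1 libraries 342, 190 and 326 FPKM. Every treated library was thus below every Control library, and replicate 2 was the lowest library of both groups. Means were 700 ± 70.6 and 286 ± 83.5 FPKM (SD, n = 3). The change was -1.33 on the log2(FPKM + 1) scale (95% interval -1.90 to -0.75, limma adjusted p 0.00491). The deposited row names a transcript of 829 nt whose 3′ end is incomplete in the annotation, 1 of 3 for the gene, and it is not stated whether the row holds the gene or that transcript alone.

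Because Gpx3 is a proximal tubule product in the kidney, the tubule markers stand beside its fall. Aqp1 (a water channel) was 9.94, 12.2 and 9.06 FPKM in Control and 0.188, 0.244 and 0.0761 FPKM with TGF-β1, and Lrp2 (the endocytic receptor megalin) was 1.09 to 1.93 and 0.212 to 0.245 FPKM. Both were thus lower with TGF-β1, like Gpx3. Cubn (the receptor cubilin) was 0.587 to 0.728 FPKM in Control and 1.23 to 1.32 FPKM with TGF-β1, and Slc22a8 (an anion transporter) was at 0 in 5 of the 6 libraries. These markers did not move one way, and their part in the fall of Gpx3 was not tested.

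Sod3 was scarce in these cells. The gene is on chromosome 5 (52755185 to 52762644, plus strand) and has 1 annotated transcript. The Control libraries gave 1.40, 1.13 and 1.13 FPKM and the treated libraries 0.108, 0.293 and 0.274 FPKM. These values are about 52, 42 and 41 fragments in Control and 4, 10 and 10 fragments with TGF-β1. The groups were far apart for so small a signal, with the highest treated library well below the lowest Control library. Means were 1.22 ± 0.155 and 0.225 ± 0.102 FPKM (SD, n = 3). On the log2(FPKM + 1) scale the change was -0.86 (95% interval -1.10 to -0.62, limma adjusted p 0.00162), a scale that understates the change of a gene this low. With a pseudocount of 0.1 it was -2.07 (limma adjusted p 0.00539).

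Non-overlap was common in these data, at 59.4% of tested rows and 44.1% of all rows. Of the 9 genes, 4 had groups that did not overlap: Gpx3 and Sod3, and also Gpx1 and Gpx7, which were not called.

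Gpx1, the main cytosolic glutathione peroxidase, was lower in the TGF-β1 libraries without passing the test. The gene is on chromosome 9 (108241607 to 108242671, plus strand). Control libraries gave 305, 222 and 246 FPKM and TGF-β1 libraries 208, 164 and 218 FPKM, so the highest treated library was just under the lowest Control library. The change was -0.38 (95% interval -0.77 to 0.01, limma adjusted p 0.0961), which spans 0.58 to 1.01 times the Control level. Replicate 2 was the lowest library of Gpx1 in both groups. When a term for the replicate 2 libraries was added, the same change of -0.38 had a limma adjusted p of 0.0293. That fit called 50% of all rows. The labels give replicate numbers and name no batch, so whether replicate 2 is one is not known. Within replicates 1 and 3 alone the change of Gpx1 was -0.36 (limma adjusted p 0.106).

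Gpx4, the enzyme that protects membrane lipids, differed little between the groups. The gene is on chromosome 10 (79509911 to 79519184, plus strand). It gave 479, 447 and 383 FPKM in Control and 425, 417 and 430 FPKM with TGF-β1. The treated libraries fell inside the Control range. The change was -0.04 (limma adjusted p 0.803), with a 95% interval of 0.82 to 1.16 times Control. The row names a processed transcript of a gene with 6 annotated transcripts. A stretch of 66.8% of it recurs at 99.8% identity elsewhere on chromosome 10 (45595141 to 45595872). Another copy, of 66.7% at 91.4% identity, lies on chromosome 17, where Hnrpll is annotated. How reads that match more than 1 place were counted is not stated, so the level of Gpx4 is uncertain.

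Gpx8, an endoplasmic reticulum peroxidase, lies on chromosome 13 (113832971 to 113836596, minus strand) and overlaps Cdc20b on the opposite strand, whose reads cannot be told apart unless strand was kept. It gave 157, 163 and 143 FPKM in Control and 163, 189 and 165 FPKM with TGF-β1. The groups overlapped by a fraction of an FPKM. The change was 0.16 (limma adjusted p 0.221), with a 95% interval of 0.95 to 1.31 times Control.

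Gpx7, its relative in the same compartment, was barely detected. It lies on chromosome 4 (108072995 to 108079566, minus strand). It was 0.221, 0.222 and listed at 0 FPKM in Control and 0.224, 0.243 and 0.681 FPKM with TGF-β1. Of the nonzero libraries all but TGF-β1 replicate 3 correspond to the same estimate of about 2.7 fragments, so the separation of the groups is smaller than 1 fragment can resolve. No change was detectable at this depth (limma adjusted p 0.263).

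**Figure D2:**
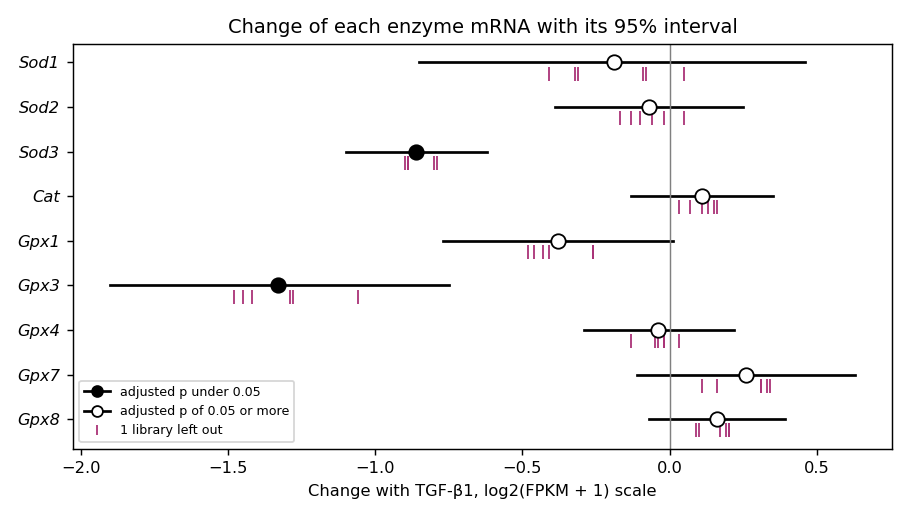
Change of each gene with TGF-β1 on the log2(FPKM + 1) scale (circles, filled where the limma adjusted p was under 0.05) with 95% intervals (bars) and the values after leaving out each library in turn (ticks). Gpx3 at -1.33 and Sod3 at -0.86 lie clear of 0, while the intervals of the other 7 genes include it.

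Sod1 was the most abundant superoxide dismutase. It lies on chromosome 16 (90220987 to 90226567, plus strand). Control libraries gave 390, 244 and 382 FPKM and TGF-β1 libraries 344, 206 and 343 FPKM. The replicate 2 library was the low one in each group, and the other libraries of a group lay close together. The change was -0.19 (limma adjusted p 0.585), and the 95% interval of 0.56 to 1.38 times Control was the widest of the 7 genes in the main test. A pseudogene copy of Sod1 on chromosome 6 (67155509 to 67156120) matches 94.7% of the transcript at 97.2% identity. Its own row, Gm8566, was listed at 0 in all libraries but Control replicate 2, at 0.196 FPKM. A further copy on chromosome 15 matches 92.9% at 83.8% identity. How reads that match more than 1 place were counted is not stated, so the level of Sod1 is uncertain too.

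Replicate 2 stood apart for some of these enzymes. Sod1 in replicate 2 was 0.63 times the mean of replicates 1 and 3 in Control and 0.60 times with TGF-β1. Of 10791 tested protein-coding rows of at least 300 nt, 203 (1.88%) were as low as this or lower in both groups. Gpx1 had ratios of 0.80 and 0.77, Gpx3 of 0.84 and 0.57, and Sod2 of 0.80 and 0.89. Cat was at 0.85 in Control and 1.1 with TGF-β1, Gpx4 at 1.04 and 0.97, and Gpx8 at 1.09 and 1.15. The median of all tested rows was 1.0 and 1.04. When the term for the replicate 2 libraries was added, the limma adjusted p of Sod1 was 0.0742, and that of Gpx3 was 0.00101. Within replicates 1 and 3 alone Sod1 was 390 and 382 FPKM against 344 and 343 FPKM, a change of -0.17 (limma adjusted p 0.155).

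**Figure D3:**
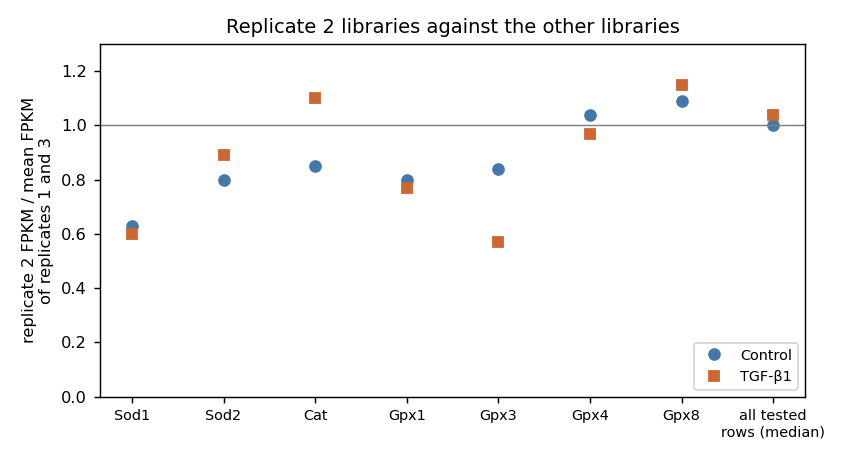
FPKM of the replicate 2 library divided by the mean of replicates 1 and 3 of the same group (circles, Control; squares, TGF-β1) for the 7 genes with a mean of at least 1 FPKM, and the median over all tested rows. Sod1 is near 0.6 in both groups, and Gpx3 is at 0.57 in the TGF-β1 group.

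Sod2, the mitochondrial enzyme, was expressed at a small fraction of the Sod1 level. It lies on chromosome 17 (13200705 to 13210985, plus strand). It was 17.7, 12.8 and 14.3 FPKM in Control and 15.4, 13.02 and 13.8 FPKM with TGF-β1. The treated libraries all lay within the Control range. The change was -0.07 (limma adjusted p 0.677), with a 95% interval of 0.76 to 1.19 times Control.

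Catalase was not called either. The Cat gene lies on chromosome 2 (103294006 to 103325317, minus strand). It gave 55.2, 45.7 and 52.9 FPKM in Control and 54.9, 58.7 and 52.2 FPKM with TGF-β1. The groups overlapped, and the highest library was a treated one. The change was 0.11 (limma adjusted p 0.394), with a 95% interval of 0.92 to 1.27 times Control.

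The order of levels shifted at the top, where the levels of Gpx3, Gpx4 and Sod1 carry the limits of their rows given above. In Control it was Gpx3, Gpx4, Sod1, Gpx1, Gpx8, Cat, Sod2, Sod3 and Gpx7, and the ranges of Gpx4 and Sod1, and of Sod1 and Gpx1, overlapped. Gpx3 stood above all others, with its lowest Control library at 618 FPKM and the highest of Gpx4 at 479 FPKM. With TGF-β1 the order was Gpx4, Sod1, Gpx3, Gpx1, Gpx8, Cat, Sod2, Gpx7 and Sod3. There Gpx4 was above all others at 417 to 430 FPKM, and neighbours from Sod1 down to Gpx8 overlapped. The 7 genes other than Sod3 and Gpx7 were above 3 FPKM, the level at which the study called a gene expressed, in every library.

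The make-up of the glutathione peroxidase transcripts changed with the fall of Gpx3. Summed over the 5 genes they came to 1685, 1450 and 1508 FPKM in Control and to 1138, 960 and 1140 FPKM with TGF-β1, so the sum was lower in every treated library. Gpx3 made up 44.2%, 42.6% and 48.8% of the sum in Control and 30.1%, 19.8% and 28.5% with TGF-β1. The share of Gpx4 went from 28.2% ± 2.72 to 39.5% ± 3.39 (SD, n = 3) and that of Gpx8 from 10.0% ± 1.08 to 16.2% ± 3.05, neither with overlap between groups. The share of Gpx1 was 16.6% ± 1.41 and 18.2% ± 1.03, with overlapping groups. Shares do not depend on the scaling between libraries, and they must rise for some genes when another falls. Their size rests on the rows of Gpx3 and Gpx4, whose levels are uncertain as described above.

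Among superoxide dismutases Sod1, whose level carries the limit given above, held 93.9% to 96.1% of the summed FPKM in all 6 libraries. Sod2 held 3.60% to 5.93%, and Sod3 at most 0.438%. The sum was 355 ± 84.1 FPKM in Control and 312 ± 79.9 FPKM with TGF-β1 (SD, n = 3), with overlapping groups.

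**Figure D4:**
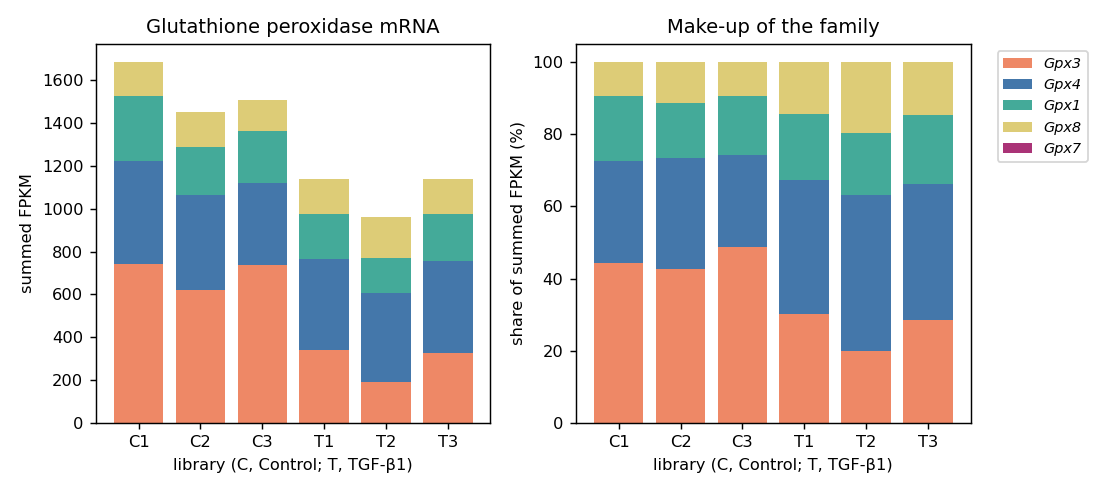
Summed FPKM of the 5 glutathione peroxidases (left) and the share of each in percent (right) in each library, with C1 to C3 for Control and T1 to T3 for TGF-β1. The Gpx3 segment shrinks from 42.6% to 48.8% of the sum in Control to 19.8% to 30.1% with TGF-β1, and Gpx7 is too low to be seen.

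Genes that supply or assist these enzymes were followed through 12 lists. Of 143 genes 130 had a row and 109 entered the main test. There 39 rose and 22 fell, 56.0% in all, beside 48.1% of all rows. The median change was 0.12, beside -0.02 over all rows. When libraries were rescaled to a common sum of protein-coding rows, which moves the median of all rows to -0.19, 31 partner genes rose and 32 fell. Gpx2, Gpx5 and Gpx6 had no row and were not analysed here.

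Metal supply to the superoxide dismutases was mixed, with 3 of 7 tested genes up and 1 down. Ccs, the chaperone that loads copper into Sod1, was 25.1 ± 3.20 FPKM in Control and 22.7 ± 1.20 FPKM with TGF-β1 (SD, n = 3, limma adjusted p 0.366). Slc11a2, a metal ion importer, rose from 14.7 ± 3.19 to 31.7 ± 6.87 FPKM (limma adjusted p 0.00659). That call was lost within replicates 1 and 3 alone (adjusted p 0.0585). Slc31a2, a copper transporter, fell from 15.0 ± 1.43 to 7.95 ± 0.870 FPKM (limma adjusted p 0.00158). Slc31a1, another copper transporter, rose from 22.0 ± 3.35 to 36.3 ± 2.76 FPKM (limma adjusted p 0.00552).

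Of the 10 tested genes of selenoprotein synthesis 2 rose and 8 were not called. Sephs2, which makes the selenium donor, gave 5.75, 4.60 and 6.96 FPKM in Control and 11.2, 10.2 and 12.2 FPKM with TGF-β1 (limma adjusted p 0.00405). The groups were well separated. Lrp8, a receptor that takes up selenoprotein P, rose from 1.21 ± 0.189 to 4.82 ± 0.271 FPKM (SD, n = 3, limma adjusted p 1.93e-04). Secisbp2, which binds the element that recodes UGA, was 6.78 ± 2.29 and 6.81 ± 0.870 FPKM (limma adjusted p 0.888).

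Other selenoproteins moved in both directions, 4 up and 2 down of 9 tested. Selenoprotein P (row Sepp1), the secreted selenium carrier, was 53.6, 46.3 and 54.1 FPKM in Control and 6.67, 7.10 and 6.28 FPKM with TGF-β1. This fall, of -2.77 on the log2(FPKM + 1) scale (limma adjusted p 1.09e-05), was larger than that of Gpx3 in the same test. Ept1, an enzyme of phospholipid synthesis that is itself a selenoprotein, rose from 4.91 ± 0.425 to 13.5 ± 0.193 FPKM (SD, n = 3, limma adjusted p 1.02e-04). The 3 selenocysteine members described here thus stood among selenoproteins that rose, fell or were not called.

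The peroxiredoxins, which also reduce peroxides, rose in 4 of 6 cases, and the other 2 were not called. Prdx6 gave 103, 97.6 and 87.1 FPKM in Control and 229, 269 and 223 FPKM with TGF-β1, a change of 1.32 (limma adjusted p 2.27e-04). Prdx1, Prdx4 and Prdx5 rose by 0.46, 0.58 and 0.83 (limma adjusted p 0.0154, 0.0308 and 0.00189). Prdx2 and Prdx3 were not called, at 0.07 and 0.08. The median of the 6 was 0.52.

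Thioredoxins, glutaredoxins and their reductases went both ways, 3 up and 2 down of 11. Glrx3 rose from 128 ± 12.9 to 233 ± 8.46 FPKM and Glrx fell from 28.6 ± 1.47 to 7.37 ± 0.329 FPKM (SD, n = 3, limma adjusted p 7.08e-04 and 2.36e-05). Genes of glutathione supply and turnover also split, 5 up and 3 down of 10. Gclc, the catalytic subunit of the first step of glutathione synthesis, gave 32.3, 30.0 and 37.2 FPKM in Control and 13.1, 15.6 and 13.1 FPKM with TGF-β1 (limma adjusted p 3.82e-04). Gclc was thus lower in every treated library. Chac1, which breaks glutathione down, rose from 2.06 ± 1.02 to 19.1 ± 0.491 FPKM (SD, n = 3, limma adjusted p 2.57e-04). Gsr, which reduces oxidized glutathione, rose as well, from 10.1 ± 0.892 to 40.8 ± 3.94 FPKM (limma adjusted p 5.42e-05).

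In the endoplasmic reticulum, where Gpx7 and Gpx8 work, 9 of 11 tested genes of oxidative folding rose and 1 fell. Pdia5, a disulfide isomerase, rose from 14.6 ± 0.771 to 39.6 ± 2.71 FPKM, and Txndc12, a thioredoxin-like protein, fell from 87.6 ± 2.29 to 61.1 ± 3.69 FPKM (SD, n = 3, limma adjusted p 7.73e-05 and 0.00231). The median of the list was 0.68, and Gpx8 itself was at 0.16. In the peroxisome, which holds catalase, 2 of 19 tested genes rose and 5 fell. Pex5, the import receptor for catalase, was 14.9 ± 0.421 FPKM in Control and 13.2 ± 1.02 FPKM with TGF-β1, without overlap between groups (limma adjusted p 0.149). Pex6, which recycles the receptor, fell from 10.7 ± 0.322 to 5.73 ± 2.04 FPKM (limma adjusted p 0.0253), and that call was lost without Control replicate 1, 2 or 3 (adjusted p 0.0746, 0.0704 and 0.0622).

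Sources of superoxide and hydrogen peroxide were mostly low, and only 5 of the 11 genes with a row entered the main test, 2 of them up and 2 down. Nox4, the NADPH oxidase of kidney cells that releases hydrogen peroxide, gave 14.6, 14.8 and 11.3 FPKM in Control and 36.3, 34.6 and 34.4 FPKM with TGF-β1. It rose by 1.32 (limma adjusted p 2.71e-04), while Noxo1, an organizer of another NADPH oxidase, fell from 4.99 ± 1.11 to 1.15 ± 0.521 FPKM (SD, n = 3, limma adjusted p 0.00244).

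**Figure D5:**
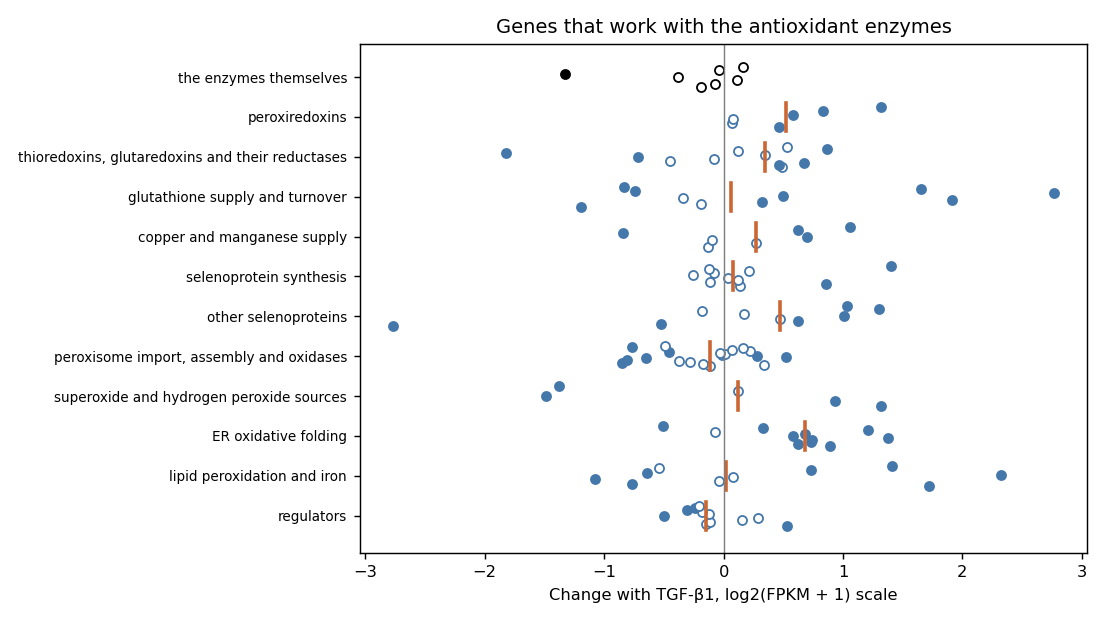
Change with TGF-β1 on the log2(FPKM + 1) scale of the 7 enzyme genes in the main test (black) and of each tested gene of 11 partner lists (blue), filled where the limma adjusted p was under 0.05, with the list median as an orange line. The medians of oxidative folding (0.68) and peroxiredoxins (0.52) lie to the right, and 6 of the 7 enzymes have open circles, between -0.38 and 0.16.

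The rows most like Gpx3 over the 6 libraries were sought among 10845 protein-coding rows by the distance between centred log2(FPKM + 1) profiles. The nearest were Ninj1, Zfp707 and Socs3, at distances of 0.17, 0.25 and 0.28 and with changes of -1.28, -1.29 and -1.40. For Gpx7, whose difference of 0.26 was the largest positive one, they were P2ry6, Srxn1 and Coq2, with changes of 0.27, 0.35 and 0.31. That rank and profile rest on TGF-β1 replicate 3: without it Gpx7 was at 0.11, below Gpx8 at 0.19 and Cat at 0.15, so the likeness is to a pattern that this depth does not resolve. All 6 were expressed at other levels than the gene they resembled, since the measure compares the pattern and not the height.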

How the data were processed

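The members and gene lists were chosen with earlier results of these data known. The study mapped reads to mm9 with TopHat (2.0.6 in its methods, TopHat2 2.0.11 in the submitters' processing notes) and estimated FPKM with Cufflinks 2.0.2. The deposited values are FPKM for each library, and whether they were also scaled between libraries is not stated. Median ratios of the libraries to the row means were 0.997 to 1.003. Rescaling by them, which is among the alternatives below, could thus hardly change a result. Differential expression had been tested by the authors with DESeq on counts that were not used here. Instead, limma 3.58.1 in R 4.3.3 (lmFit, eBayes with trend) was run on log2(FPKM + 1) for 11898 rows whose mean FPKM was 1 or more, with two-sided p-values adjusted by Benjamini-Hochberg. An adjusted p under 0.05 was called changed. Rows were matched by transcript identifier to GENCODE M1. Depth was recovered by assuming 200 nt fragments, and 99.4% to 99.8% of low values then lay within 0.1 of a whole fragment. An exact permutation test of 3 against 3 cannot go below p = 0.1 and was not used. Copies of the transcripts were searched with blastn 2.17.0 (at least 50% of the length at 80% identity). The scripts were tested on simulated data. Named partner genes were the largest called rise and fall of each list without overlap between groups, plus Ccs, Sephs2, Secisbp2, Pex5, Nox4, Gpx2, Gpx5 and Gpx6, plus the 3 rows nearest to the members with the largest fall and rise. One gene that this rule names is not reported here. Prdx1 to Prdx5, Slc31a1 and Gsr were named in addition, outside this rule. The fall of Gpx3 was the largest on the log2(FPKM + 1) scale. Python 3.11.15 with scipy 1.17.1, pandas 2.3.3, Biopython 1.88 and matplotlib 3.10.9 was used.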

Additional observations from a re-analysis of the deposited data

How the results depend on the processing

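Gpx3 and Sod3 were called lower in all alternatives that tested them, Gpx3 at -1.52 to -1.06 (limma adjusted p 0.00101 to 0.0219) and Sod3 at -2.07 to -0.69 (0.000572 to 0.0347). The number of the 9 genes called was 2 without each library in turn and 1 with a filter at 3 FPKM, which leaves Sod3 untested. Gpx1 was called as well at -0.58 (limma adjusted p 0.0187) with rescaling to a common sum of protein-coding rows, and at -0.62 (0.0130) with quantile normalization. It was also called at -0.38 with a term for the replicate 2 libraries (0.0293) and with the replicate block (0.0456). None of the reversals of sign below was called. Cat was -0.08 with the common sum, -0.02 with quantile normalization and -0.01 within replicates 1 and 3, Gpx8 was -0.04 with the common sum and -0.06 with quantile normalization, and Gpx4 was 0.07 after correction for GC content and length. Without 1 library, Sod1 was 0.05 without TGF-β1 replicate 2 and -0.41 at the other end, Sod2 -0.17 to 0.05 (the latter without Control replicate 1) and Gpx4 -0.13 to 0.03 (the latter without Control replicate 1). The cause of these shifts was not tested. The fall of the Gpx3 share was -15.9 to -21.0 percentage points without 1 library. The stricter threshold of 0.01 called 3672 of all rows by construction, against 5721, and 2 of the 9 genes. The common sum called 2015 rows up and 3927 down, against 2911 and 2810. Replicate numbers are shared between groups, but the main test used no block, since the study's methods name none. The deviations of same-numbered libraries correlated at 0.092, 0.232 and 0.085 over 11898 rows. Those of differently numbered libraries correlated at 0.117 for Control replicate 1 with TGF-β1 replicate 3, and otherwise at -0.194 to -0.016. Whether same-numbered libraries share a batch was not tested. The replicate block called 3 of the 9 genes, 62 partner genes against 61, and 5391 rows. Depth limits Gpx7 and Sod3, the only members with at most 52 fragments in every library.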

Other observations

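Gpx4 is known to protect cells from iron-driven lipid peroxidation, and the genes of that process were followed as a further list. Of 10 tested genes, 4 rose and 3 fell, with a median change of 0.02 on the log2(FPKM + 1) scale. Tfrc, the transferrin receptor that imports iron, gave 2.61, 2.20 and 1.90 FPKM in Control and 13.8, 16.3 and 15.4 FPKM with TGF-β1 (limma adjusted p 3.78e-05). Fth1, the heavy chain of the iron store ferritin, gave 2407, 1707 and 2010 FPKM in Control and 1051, 818 and 1020 FPKM with TGF-β1 (limma adjusted p 0.00293). The treated libraries were thus above every Control library for the importer and below every one for the store.

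Among 11 tested regulators of antioxidant genes, 1 rose and 3 fell, with a median change of -0.15. Foxo1, a transcription factor known to act on Sod2 and Cat, rose from 7.86 ± 0.348 to 11.8 ± 1.59 FPKM (SD, n = 3, limma adjusted p 0.00880). Keap1, the adaptor that marks NRF2 for degradation, fell from 14.3 ± 1.99 to 9.72 ± 0.832 FPKM (limma adjusted p 0.0161), a call that was lost without Control replicate 1 (adjusted p 0.0531) and without TGF-β1 replicate 1 (0.0519).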
